A study of Homo sapiens with 34 samples.

Results

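The comparison was between mock-transfected and untreated androgen-dependent (AD) cells of LNCaP, an established human prostate cancer line derived from luminal-type tumour cells that need androgen to grow. It used 4 of the 34 samples of the study, all RNA-seq libraries of polyadenylated RNA and 2 per group, chosen by their sample titles. Mock AD cells had received a mock small interfering RNA (siRNA, titled NC) with the lipid reagent Lipofectamine 2000 and were collected 24 h later. Untreated AD cells carry no siRNA in their titles, and both groups were grown in RPMI1640 medium. Of 28071 genes listed, 12931 entered the comparison because they reached 0.5 RPKM (a read density corrected for gene length and sequencing depth) in at least 2 of the 4 libraries. Beside them, 2 AD libraries after siRNA against EZH2 (siEZH2) are given as values, and 4 libraries of androgen-independent LNCaP cells (AI, kept in charcoal-stripped serum, 2 mock and 2 untreated) served to test whether the mock effect differed between the lines. The treatment protocol in the labels names LNCaP/abl, an androgen-independent line, as the transfected cells, whereas these libraries are titled AD, and the titles were followed. PTGR1, TMEM45B and HTATIP2 were at 0 to 1.27 RPKM in the 4 AD libraries and 7.56 to 108 RPKM in the 4 AI ones. They had been chosen as high in AI libraries in earlier work on these same data. Their levels therefore cannot decide between the protocol and the titles. Nothing in the labels tells whether the replicates of a group came from separate cultures. The p-values therefore measure the spread between these libraries, which may be technical.

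A mock transfection is the usual baseline of a knockdown experiment, and it is itself a treatment. Cells carry sensors for foreign nucleic acid. RIG-I (gene RIGI) and MDA5 (gene IFIH1) bind double-stranded RNA in the cytosol and signal through MAVS to the kinases TBK1 and IKKε, which activate the transcription factors IRF3 and IRF7 and, in parallel, NF-kB. IRF3 and IRF7 drive interferon genes, interferon acts through the kinases JAK1 and TYK2 on a transcription factor complex with STAT2 and IRF9, and this complex binds the interferon-stimulated response element (ISRE) in front of antiviral genes. NF-kB binds kB sites in front of chemokine and survival genes and of its own inhibitors. Which component of a mock transfection acts on a cell (the lipid, the duplex, the handling) cannot be told apart in this design.

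The promoters of 7 genes that were higher in mock cells are shown because they carry the letters through which these 2 pathways act. Each is the 200 bases before the annotated gene start, 5′ to 3′ on the gene's strand, from RefSeq on GRCh38.p14. Capitals mark the ISRE letters (GAAA, any 2 bases, GAAA) in the first 4 and the kB letters (GGGA, any base, TTTCC) in the last 3, searched on both strands, so that a match on the other strand appears as its complement. These genes were picked after their values were seen.
IFI44 (chr1:78649589-78649788, plus strand): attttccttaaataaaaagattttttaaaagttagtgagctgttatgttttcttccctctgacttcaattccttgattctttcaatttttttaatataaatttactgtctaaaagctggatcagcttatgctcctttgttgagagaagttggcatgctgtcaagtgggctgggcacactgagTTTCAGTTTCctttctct
ISG15 (chr1:1013297-1013496, plus strand): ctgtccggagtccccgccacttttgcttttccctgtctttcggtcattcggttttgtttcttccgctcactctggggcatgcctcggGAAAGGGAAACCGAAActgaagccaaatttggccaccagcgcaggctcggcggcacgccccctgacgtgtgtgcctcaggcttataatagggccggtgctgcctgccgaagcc
HERC5 (chr4:88456919-88457118, plus strand): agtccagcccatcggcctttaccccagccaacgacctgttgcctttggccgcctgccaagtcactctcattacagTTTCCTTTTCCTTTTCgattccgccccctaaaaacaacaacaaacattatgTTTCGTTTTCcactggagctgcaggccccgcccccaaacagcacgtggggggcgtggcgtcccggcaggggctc
IFI6 (chr1:27672193-27672392, minus strand): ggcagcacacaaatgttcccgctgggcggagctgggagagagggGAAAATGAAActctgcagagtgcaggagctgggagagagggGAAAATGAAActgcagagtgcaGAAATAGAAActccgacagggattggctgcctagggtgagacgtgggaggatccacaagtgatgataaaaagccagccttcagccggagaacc
TNFAIP3 (chr6:137867059-137867258, plus strand): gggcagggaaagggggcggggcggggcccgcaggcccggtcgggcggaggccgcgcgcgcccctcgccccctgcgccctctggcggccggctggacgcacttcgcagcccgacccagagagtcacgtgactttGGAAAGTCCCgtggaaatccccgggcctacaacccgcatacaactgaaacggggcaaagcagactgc
NFKBIA (chr14:35404750-35404949, minus strand): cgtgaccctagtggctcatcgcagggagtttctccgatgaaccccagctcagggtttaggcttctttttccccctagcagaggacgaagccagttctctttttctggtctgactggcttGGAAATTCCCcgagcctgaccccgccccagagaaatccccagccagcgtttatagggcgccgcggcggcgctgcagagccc
NFKB1 (chr4:102501159-102501358, plus strand): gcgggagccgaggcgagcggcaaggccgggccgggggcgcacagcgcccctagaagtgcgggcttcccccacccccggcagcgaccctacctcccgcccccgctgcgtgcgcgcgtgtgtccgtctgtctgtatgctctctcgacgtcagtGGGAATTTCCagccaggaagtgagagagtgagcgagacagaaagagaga

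In promoter windows of 300 bases (250 before to 50 after the start), the ISRE letters occurred in 9 of the 16 interferon-stimulated genes that were called higher and had a window (56.2%), beside 17 of the 28 members in the table with a window, called or not (60.7%). They occurred in 65 of 1753 genes called higher (3.71%), in 233 of 9579 genes tested (2.43%) and in 996 of all 27305 windows (3.65%). ISG15, HERC5, IFI6, BST2, IFITM1, DDX60 and IFIT5 each held more than 1 match, some of them overlapping. The kB letters occurred in 4 of the 12 NF-kB targets called higher that had a window (33.3%), which were TNFAIP3, NFKBIA, NFKB1 and NFKBIZ, beside 7 of the 20 members with a window, called or not (35.0%). They occurred in 21 of 1753 genes called higher (1.20%), 49 of 9579 genes tested (0.512%) and 158 of all windows (0.579%). A match describes letters in this window and not a bound site, and both gene lists consist of known targets of these factors.

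The libraries differed in more than the treatment. Symbols starting MT-, which are mitochondrial transcripts, took 2.37% and 2.45% of the summed RPKM in mock libraries, against 18.4% and 32.6% in untreated libraries, and they were removed before rescaling. Read depth, estimated from the steps between low values, was about 9.6 and 12 M reads in mock libraries, against 17.4 and 58.3 M in untreated ones. In deposited RPKM, 1 read on a 1 kb gene was thus worth 0.104 and 0.0833 in mock libraries and 0.0574 and 0.0172 in untreated ones. These estimates are rough, since they rest on 9 and 13 low values in mock libraries and 25 and 31 in untreated ones. The median absolute log2 difference between replicates was 0.146 in mock cells and 0.311 in untreated cells. Over the tested genes, log2 levels of mock libraries correlated with the AD untreated mean at 0.928 and 0.93. Untreated AI libraries, of the other line, correlated with that mean at 0.941 and 0.931. What part of the gap belongs to the mock treatment was not tested. The labels also do not say whether untreated and transfected libraries were prepared together. Depth, mitochondrial share, any difference in preparation and treatment cannot be told apart here. Luminal markers were expressed in all 4 libraries, with HOXB13 at 167 to 236 RPKM. The basal markers KRT5 and TP63 and the blood markers PTPRC and CD3E were at or under 0.0277 RPKM in each. Other markers were detected, among them the stromal COL1A1 at 2.34 to 2.60 RPKM, the neuroendocrine SYP at 1.60 to 2.79 RPKM and the basal KRT14, which is given below.

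EZH2, the target in the study's knockdown arm, is the histone methyltransferase of Polycomb repressive complex 2. It had 10.1 and 11.6 RPKM in mock cells, against 5.32 and 8.03 RPKM in untreated cells, and the groups did not overlap. The difference missed the threshold (0.69 on the log2 scale, SE 0.238, limma adjusted p = 0.0781). AD siEZH2 libraries had 10.4 and 9.61 RPKM, close to the mock values at the RNA level.

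Mock and untreated AD cells differed across much of the transcriptome. Of 12931 genes tested, 3330 (25.8%) passed a limma adjusted p of 0.05, of which 2380 (18.4%) rose and 950 (7.35%) fell in mock cells. The median gene differed by 0.165 on the log2 scale. When the whole distributions were matched between libraries by quantile normalization, which set the median difference at -0.0172, 1809 genes rose and 1753 fell, so the balance of rises over falls rests on the scaling. A log2 difference of 1 or more was reached by 1333 genes that rose and 573 that fell, and one of 3 or more by 49 that rose and 15 that fell. Leaving out a mock library left 1186 or 1209 genes called, and leaving out an untreated library left 5802 or 5889. Most list counts below are therefore given with their range over those 4 fits, and are read against the 18.4% of genes that rose and the 7.35% that fell. Mock and untreated values did not overlap for 66.7% of tested genes, with mock above in 43.7% and below in 22.9%.

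**Figure D1:**
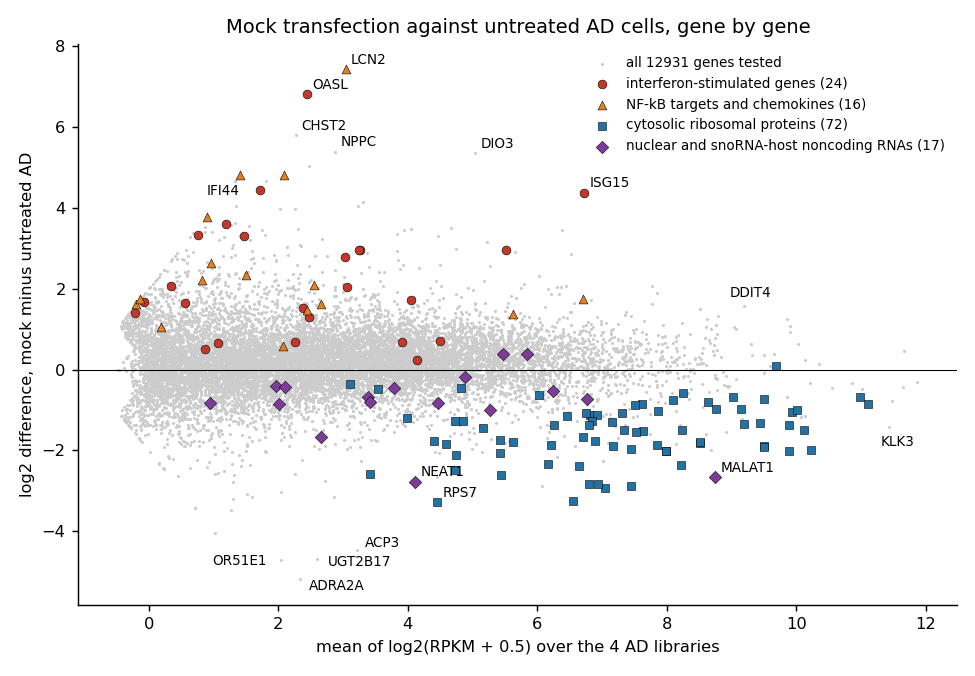
Log2 difference of mock minus untreated AD cells (y axis) against the mean of log2(RPKM + 0.5) over the 4 libraries (x axis) for the 12931 genes tested, 1 point a gene, with 4 gene lists in colour. Interferon-stimulated and NF-kB genes lie above 0, up to 7.43 for LCN2, and nearly all ribosomal protein genes lie below 0 at high levels.

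Interferon-stimulated genes rose together. Of 40 genes on the list, 33 were in the table and 24 were tested. Of these 19 rose and none fell, with a median log2 difference of 1.89 beside 0.165 over all genes, and mock values lay above untreated values in all 24. Of the 24, 9 reached 0.5 RPKM in mock cells alone and so passed the filter only where they were high. Of the other 15, 10 rose (66.7%), beside 16.3% of the 12058 genes that reached 0.5 RPKM in libraries of both groups. Without either mock library 9 of 15 members tested rose, and without either untreated library 20 or 23 of 24. The summed level of the 33 genes was 915 and 929 RPKM in mock cells, against 127 and 111 RPKM in untreated cells.

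OASL, an oligoadenylate synthetase-like protein that enhances RIG-I signalling, had 59.7 and 54.2 RPKM in mock cells, against 0 and 0.0231 RPKM in untreated cells (log2 difference 6.81, SE 0.195, limma adjusted p = 0.000158). It was near 0 in untreated cells and among the well expressed genes in mock cells. ISG15, the ubiquitin-like modifier whose promoter with overlapping ISRE letters is shown above, had 471 and 493 RPKM in mock cells, against 32.5 and 15.8 RPKM in untreated cells (log2 difference 4.38, SE 0.319, limma adjusted p = 0.000933). IFI44, with a single match next to its start, had 13.6 and 16.3 RPKM in mock cells, against 0.143 and 0.278 RPKM in untreated cells (log2 difference 4.45, SE 0.227, limma adjusted p = 0.000407). OAS1, which makes the 2-5A messenger that activates RNase L, had 7.84 and 7.09 RPKM in mock cells, against 0.143 and 0.162 RPKM in untreated cells (log2 difference 3.61, SE 0.213, limma adjusted p = 0.000589). In all 4 genes the lowest mock library was above the highest untreated library.

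The enzymes that attach and remove ISG15, named after their values were seen, rose with it. UBE2L6, its E2 enzyme, had 26.03 and 26.1 RPKM in mock cells, against 3.46 and 2.41 RPKM in untreated cells. HERC5, its main E3 ligase, had 8.19 and 8.23 RPKM in mock cells, against 0.429 and 0.336 RPKM in untreated cells. USP18, which removes it, had 17.5 and 19.6 RPKM in mock cells, against 10.1 and 12.6 RPKM in untreated cells. Their log2 differences were 2.97, 3.31 and 0.69, and USP18 was past the threshold only narrowly (limma adjusted p = 0.0403) and was not called after quantile normalization. Effectors that rose, also named after their values were seen, included BST2, which tethers budding virions, with 20.6 and 21.4 RPKM in mock cells, against 2.82 and 2.43 RPKM in untreated cells. RSAD2 (viperin) had 4.62 and 5.08 RPKM in mock cells, against 0.0715 and 0 RPKM in untreated cells. IFI6, whose promoter is shown above, had 129 and 126 RPKM in mock cells, against 13.8 and 18.4 RPKM in untreated cells. In each of these the groups lay far apart.

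The 5 tested members that were not called were IFITM2, MX1, HERC6, DTX3L and TRIM25, with log2 differences of 0.25 to 0.70. MX1, an antiviral GTPase often used as a marker of interferon response, had 1.60 and 1.79 RPKM in mock cells, against 1.02 and 1.04 RPKM in untreated cells (log2 difference 0.52, limma adjusted p = 0.121). The other 9 members in the table stayed below the filter, namely MX2, IFI27, IFI44L, XAF1, SAMD9, SAMD9L, EPSTI1, PARP14 and PLSCR1. Of these IFI27 had 0.472 and 2.25 RPKM in mock cells and was listed at 0 in both untreated libraries. Reads of IFITM2 may have been shared with similar neighbouring genes of its family.

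Sensors and signalling components of the pathway rose in part. Of 26 genes on the list, 19 were tested, 13 rose and none fell (median 1.01). Of the 17 that reached 0.5 RPKM in both groups, 11 rose (64.7%), and without either mock library 5 or 6 of 17 members tested rose. RIGI had 5.68 and 6.22 RPKM in mock cells, against 0.174 and 0.220 RPKM in untreated cells (log2 difference 3.21, SE 0.214, limma adjusted p = 0.000686). IFIH1, the gene of MDA5, had 3.64 and 3.49 RPKM in mock cells, against 0.531 and 0.683 RPKM in untreated cells (limma adjusted p = 0.00358). DHX58 (LGP2), the third receptor of this family, had 1.85 and 1.98 RPKM in mock cells, against 0.542 and 0.810 RPKM in untreated cells (limma adjusted p = 0.0215). All 3 receptors were higher in both mock libraries than in either untreated one.

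The adaptors and kinases below the receptors were uneven. MAVS had 12.9 and 12.2 RPKM in mock cells, against 16.1 and 17.5 RPKM in untreated cells (log2 difference -0.40, limma adjusted p = 0.122). TBK1 had 6.32 and 8.51 RPKM in mock cells, against 5.15 and 6.51 RPKM in untreated cells (log2 difference 0.32, limma adjusted p = 0.351). Neither passed the test, and MAVS was called lower after quantile normalization. IKBKE, the inducible IKKε, had 2.96 and 2.99 RPKM in mock cells, against 0.838 and 0.636 RPKM in untreated cells (limma adjusted p = 0.00705). TICAM1 (TRIF), the adaptor of TLR3, had 17.6 and 16.5 RPKM in mock cells, against 6.51 and 8.90 RPKM in untreated cells (limma adjusted p = 0.0130). Both of these rose.

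Among transcription factors, IRF1 had 14.4 and 13.8 RPKM in mock cells, against 1.36 and 1.12 RPKM in untreated cells (log2 difference 3.07, SE 0.2002, limma adjusted p = 0.000669). IRF7, the amplifier of interferon production, had 10.3 and 8.36 RPKM in mock cells, against 1.40 and 2.73 RPKM in untreated cells (log2 difference 1.98, SE 0.298, limma adjusted p = 0.00746). Both rose, as did IRF2, IRF3, STAT3 and the kinase TYK2. STAT2 was not called (log2 difference 0.57, limma adjusted p = 0.124), nor were the receptor chains IFNAR1 and IFNAR2 (log2 differences -0.28 and -0.10).

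Of the interferon genes themselves, IFNL1, a type III interferon, had 1.69 and 1.90 RPKM in mock cells and was listed at 0 in both untreated libraries (limma adjusted p = 0.00234). IFNB1 stayed below the filter, with 0.111 and 0 RPKM in mock cells and 0 in both untreated libraries. IFNL3 had 0.130 and 0.102 RPKM in mock cells and 0 in both untreated libraries. At the depth of the mock libraries these values are near that of a single read. In AD siEZH2 libraries IFNB1 had 0.885 and 0.609 RPKM and IFNL1 had 4.55 and 3.41 RPKM.

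**Figure D2:**
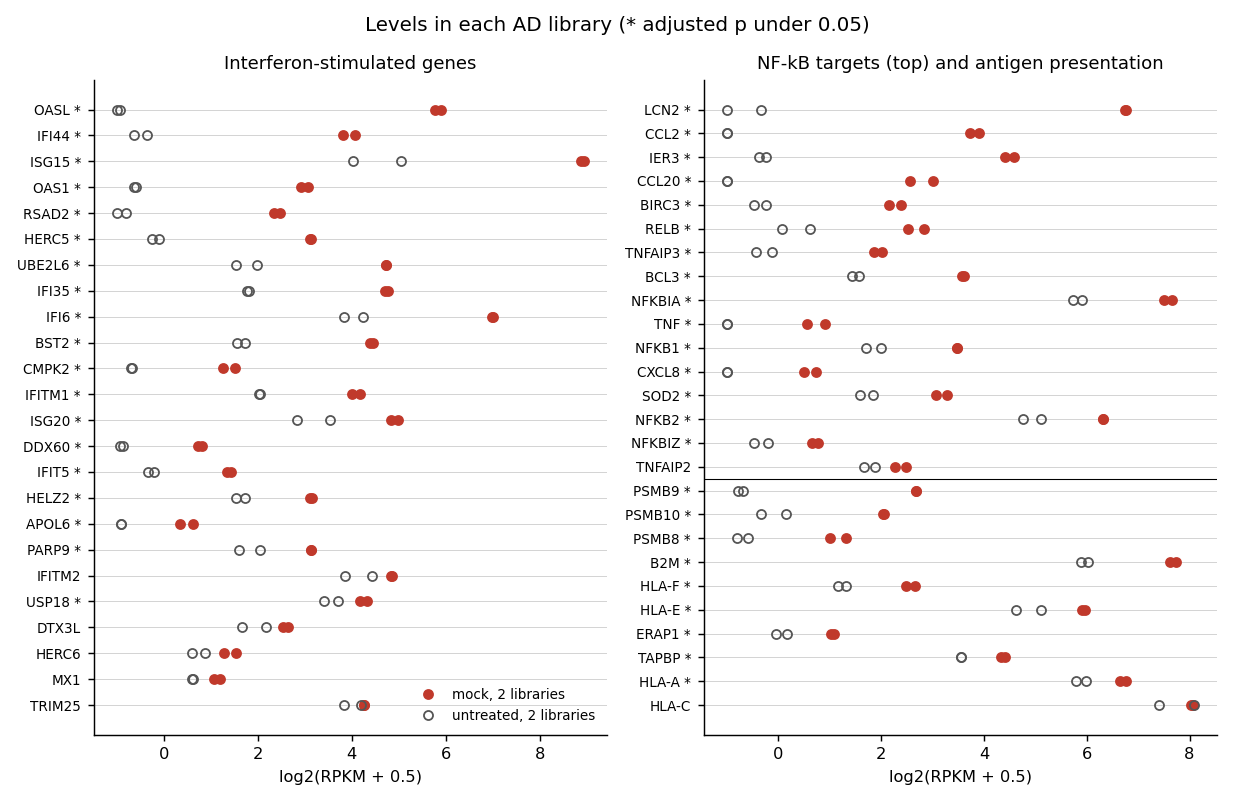
Log2(RPKM + 0.5) in each AD library (x axis) for the tested interferon-stimulated, NF-kB and antigen presentation genes (1 row a gene, filled points for 2 mock libraries, open points for 2 untreated ones, a star for an adjusted p under 0.05). The mock points lie to the right of the untreated ones in all rows except HLA-C, where the groups overlap.

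Genes of antigen presentation on MHC class I rose as well. Of 16 on the list, 10 were tested, 9 rose and none fell (median 1.20). Of the 8 that reached 0.5 RPKM in both groups, 7 rose, and without either mock library 3 of 8 rose. The 3 subunits that turn the proteasome into the immunoproteasome were all called. PSMB9 had 5.87 and 5.89 RPKM in mock cells, against 0.123 and 0.0810 RPKM in untreated cells (log2 difference 3.41, SE 0.212, limma adjusted p = 0.000646). PSMB10 had 3.65 and 3.63 RPKM in mock cells, against 0.286 and 0.602 RPKM in untreated cells. PSMB8 had 1.50 and 1.999 RPKM in mock cells, against 0.0715 and 0.162 RPKM in untreated cells. All were scarce in untreated cells. B2M, the light chain of class I molecules, had 198 and 212 RPKM in mock cells, against 58.9 and 64.7 RPKM in untreated cells (log2 difference 1.72, SE 0.155, limma adjusted p = 0.00186). HLA-C was the member not called, with 266 and 259 RPKM in mock cells, against 169.5 and 272 RPKM in untreated cells. Its groups overlapped, and reads of HLA genes may be shared between near-identical copies.

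The NF-kB list rose too. Of 27 genes, 16 were tested, 15 rose and none fell (median 1.93), with mock above untreated in all 16. Of these 9 reached 0.5 RPKM in mock cells alone. Of the other 7, 6 rose, and the same number of 7 tested rose without either mock library. TNFAIP2 was the member not called (log2 difference 0.59, limma adjusted p = 0.0863). Summed levels of the 23 genes in the table were 459 and 486 RPKM in mock cells, against 99.3 and 101 RPKM in untreated cells.

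LCN2, a secreted siderophore-binding protein of innate defence, had 106 and 109 RPKM in mock cells, against 0.286 and 0 RPKM in untreated cells (log2 difference 7.43, SE 0.254, limma adjusted p = 0.000168). It had the largest rise among the named genes. CCL2, which attracts monocytes, had 12.7 and 14.4 RPKM in mock cells and was listed at 0 in both untreated libraries (limma adjusted p = 0.000243). CCL20, which attracts lymphocytes and dendritic cells through CCR6, had 5.39 and 7.54 RPKM in mock cells and was also listed at 0 in untreated cells (limma adjusted p = 0.000663). IER3, an early-response survival gene, had 23.4 and 20.8 RPKM in mock cells, against 0.347 and 0.266 RPKM in untreated cells (log2 difference 4.81, SE 0.206, limma adjusted p = 0.000243). These 4 were hardly detected in untreated cells. TNF had 0.980 and 1.39 RPKM in mock cells and was listed at 0 in untreated cells. CXCL8, which attracts neutrophils, had 0.916 and 1.16 RPKM in mock cells and was listed at 0 in untreated cells, while IL6 was listed at 0 in all 4 libraries.

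The subunits and inhibitors of NF-kB itself, named after their values were seen, rose. RELB, a subunit of the non-canonical pathway, had 5.21 and 6.63 RPKM in mock cells, against 1.02 and 0.555 RPKM in untreated cells. NFKB1, the gene of p50, had 10.7 and 10.6 RPKM in mock cells, against 2.78 and 3.47 RPKM in untreated cells. NFKB2, the gene of p52, had 78.9 and 79.1 RPKM in mock cells, against 26.7 and 34.2 RPKM in untreated cells. Each was higher in both mock libraries. NFKBIA, the inhibitor that holds NF-kB in the cytosol, had 181 and 201 RPKM in mock cells, against 59.5 and 52.97 RPKM in untreated cells (log2 difference 1.75, SE 0.160, limma adjusted p = 0.00197). TNFAIP3 (A20), a ubiquitin-editing enzyme that ends the signal, had 3.57 and 3.12 RPKM in mock cells, against 0.235 and 0.416 RPKM in untreated cells (log2 difference 2.23, SE 0.233, limma adjusted p = 0.00271). NFKB1, NFKBIA and TNFAIP3 are the 3 whose kB letters are shown above.

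Ribosomal protein genes moved the other way. They encode the protein part of the cytosolic ribosome and are among the most abundant transcripts of any cell. Of 78 on the list, 72 were tested, and 58 fell and none rose (80.6% lower, beside 7.35% of all genes). The median log2 difference was -1.49, and mock values lay below untreated values in 70 of 72. The summed level was 15280 and 15210 RPKM in mock cells, against 45160 and 32470 RPKM in untreated cells. Between 50 and 71 members were called lower when single libraries were left out, and 56 after quantile normalization.

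RPS7 had 5.48 and 7.72 RPKM in mock cells, against 66.1 and 68.9 RPKM in untreated cells (log2 difference -3.28, SE 0.202, limma adjusted p = 0.000646). RPL37 had 29.6 and 30.6 RPKM in mock cells, against 395 and 212 RPKM in untreated cells (log2 difference -3.24, SE 0.290, limma adjusted p = 0.00182). RPL7A had 64.3 and 62.5 RPKM in mock cells, against 635 and 354 RPKM in untreated cells (limma adjusted p = 0.00219). In these the mock libraries lay close together and far below both untreated ones. The untreated replicates were themselves unlike for several members; RPL34, for example, chosen after its values were seen, had 43.5 and 46.9 RPKM in mock cells, against 722 and 147 RPKM in untreated cells. Ribosomal protein genes have many processed pseudogenes, so how reads were assigned among copies is uncertain. Untreated libraries, in which these genes were high, were also those with the high mitochondrial share, and the part of library composition in this difference was not tested.

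Among long noncoding RNAs of the nucleus and hosts of small nucleolar RNAs 5 of 17 fell, none rose and the median was -0.74. Over single libraries left out 3 to 11 fell, and 9 fell after quantile normalization. MALAT1, an abundant RNA of nuclear speckles, had 166 and 173 RPKM in mock cells, against 1203 and 959 RPKM in untreated cells (log2 difference -2.66, SE 0.182, limma adjusted p = 0.000748). NEAT1, the scaffold of paraspeckles, had 6.22 and 5.96 RPKM in mock cells, against 46.3 and 43.3 RPKM in untreated cells (log2 difference -2.78, SE 0.163, limma adjusted p = 0.000589). Both were several-fold scarcer in each mock library. SNHG15, SNHG16 and NORAD made up the rest of the calls, with log2 differences of -1.68, -0.83 and -1.001. GAS5 and ZFAS1 were not called (log2 differences 0.39 and 0.38).

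**Figure D3:**
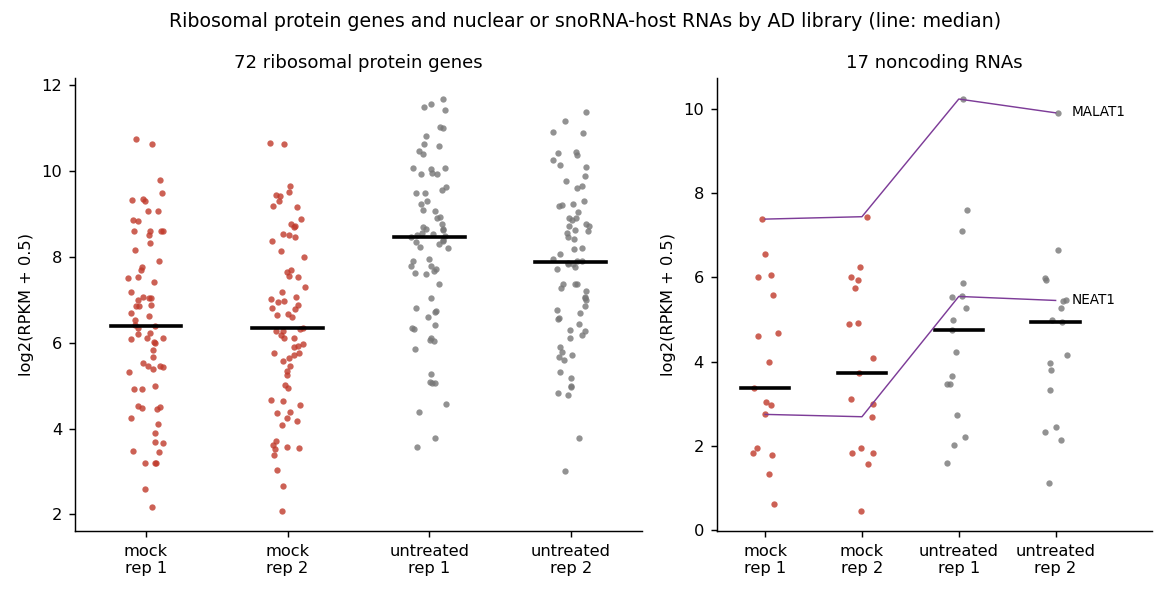
Log2(RPKM + 0.5) in each AD library, mock left of untreated, for 72 ribosomal protein genes (left) and 17 noncoding RNAs (right), 1 point a gene with the median as a bar. The ribosomal medians correspond to 83.7 and 80.1 RPKM in mock cells, against 355 and 235 RPKM in untreated cells, and lines follow MALAT1 and NEAT1.

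Protein-folding genes fell in part. Of 15 cytosolic heat shock genes tested, 6 fell (40.0%) and 1 rose, with 5 to 10 falling and 0 to 3 rising over single libraries left out. HSP90AB1, a constitutive HSP90, had 216 and 195 RPKM in mock cells, against 657 and 1006 RPKM in untreated cells (log2 difference -1.98, SE 0.235, limma adjusted p = 0.00381). DNAJB1, the HSP40 cochaperone induced by heat, had 49.2 and 49.6 RPKM in mock cells, against 170 and 200.1 RPKM in untreated cells (log2 difference -1.89, SE 0.161, limma adjusted p = 0.00167). HSPA1B, an inducible HSP70, had 15.2 and 16.3 RPKM in mock cells, against 52.6 and 45.2 RPKM in untreated cells, and its reads may be split with its near copy HSPA1A. All 3 fell, whereas HSPA4, an HSP110-type exchange factor, rose (log2 difference 0.94). Of 21 chaperones and unfolded protein response genes of the endoplasmic reticulum 5 fell (23.8%) and none rose. Without either mock library none was called, and without untreated replicate 1 or 2 the calls were 9 or 5 lower and 4 or 5 higher. HSP90B1 (GRP94) had 393 and 393 RPKM in mock cells, against 655 and 939 RPKM in untreated cells. HSPA5 (BiP), the main chaperone of this compartment, had 77.7 and 83.3 RPKM in mock cells, against 117 and 181 RPKM in untreated cells.

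In the integrated stress response, in which kinases such as PKR shut down translation and raise ATF4, 5 of 23 genes rose (21.7%) and 2 fell (8.70%), shares near those of all genes. Over single libraries left out 3 to 8 rose and 1 to 5 fell. ATF3, a transcription factor induced by many stresses, had 137 and 139.5 RPKM in mock cells, against 16.7 and 19.3 RPKM in untreated cells (log2 difference 2.91, SE 0.159, limma adjusted p = 0.000580). DDIT4 (REDD1), an inhibitor of mTORC1, had 1051 and 975 RPKM in mock cells, against 339.7 and 338 RPKM in untreated cells (limma adjusted p = 0.00266). CEBPB, a partner of ATF4, had 53.9 and 60.1 RPKM in mock cells, against 19.3 and 16.9 RPKM in untreated cells (limma adjusted p = 0.00257). These 3 rose. ATF4 itself fell at the RNA level, with 17.4 and 16.4 RPKM in mock cells, against 50.5 and 101 RPKM in untreated cells (log2 difference -2.05, SE 0.317, limma adjusted p = 0.00787). EIF2AK2, the gene of PKR, was not called (log2 difference 0.27, limma adjusted p = 0.410).

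Targets of NRF2, the transcription factor of the oxidative stress response, rose in 6 of 13 cases and fell in none (median 0.66), with 3 to 10 rising over single libraries left out. TXNRD1, thioredoxin reductase, had 75.1 and 82 RPKM in mock cells, against 23.03 and 30.7 RPKM in untreated cells (log2 difference 1.54, SE 0.190, limma adjusted p = 0.00421). GCLM, a subunit of the enzyme that starts glutathione synthesis, had 6.46 and 8.13 RPKM in mock cells, against 1.81 and 2.86 RPKM in untreated cells (limma adjusted p = 0.0113). NQO1, a quinone reductase, had 20.9 and 22.2 RPKM in mock cells, against 9.86 and 9.49 RPKM in untreated cells (limma adjusted p = 0.00724). In all 3 the groups were apart. The gene of NRF2 itself, NFE2L2, had 5.10 and 6.71 RPKM in mock cells, against 1.67 and 3.12 RPKM in untreated cells (limma adjusted p = 0.0336). GCLC, the catalytic partner of GCLM, was not called (log2 difference -0.37).

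Immediate early genes split, with 4 of 11 rising and 3 falling. Of the 11, 1 (EGR1) reached 0.5 RPKM in mock cells alone and 1 in untreated cells alone. Of the other 9, 3 rose and 2 fell. Over single libraries left out 2 to 7 of 10 tested rose and 2 or 3 fell. JUNB had 96.02 and 90.8 RPKM in mock cells, against 13.2 and 18.2 RPKM in untreated cells (log2 difference 2.56, SE 0.197, limma adjusted p = 0.00114). EGR1 had 3.78 and 3.70 RPKM in mock cells, against 0.429 and 0.416 RPKM in untreated cells (log2 difference 2.20, SE 0.210, limma adjusted p = 0.00217). JUND had 711 and 687 RPKM in mock cells, against 257 and 302 RPKM in untreated cells (limma adjusted p = 0.00473). These transcription factors rose. FOS fell, with 4.08 and 3.79 RPKM in mock cells, against 14.1 and 14.4 RPKM in untreated cells (log2 difference -1.73, SE 0.180, limma adjusted p = 0.00268). MYC, named after its values were seen, fell, with 90.6 and 90.3 RPKM in mock cells, against 187 and 201 RPKM in untreated cells (limma adjusted p = 0.00581). FOS and JUNB, whose proteins can form the dimer AP-1, thus moved in opposite directions.

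Part of the cell cycle genes rose, in numbers that depended on the scaling. In the G1/S and replication list 13 of 27 rose and none fell, with a median of 0.57. After quantile normalization 4 rose, and over single libraries left out 1 to 22. RRM1, the large subunit of ribonucleotide reductase, had 59.8 and 62.3 RPKM in mock cells, against 23.98 and 25.3 RPKM in untreated cells (log2 difference 1.29, SE 0.153, limma adjusted p = 0.00380). CDK2, the kinase of S phase entry, had 17.8 and 16.7 RPKM in mock cells, against 8.30 and 10.01 RPKM in untreated cells (limma adjusted p = 0.0173). In the G2/M list 8 of 24 rose and 1 fell, with 2 to 12 rising over single libraries left out. CDK1 had 48.6 and 55.4 RPKM in mock cells, against 14.6 and 14.7 RPKM in untreated cells (log2 difference 1.79, SE 0.162, limma adjusted p = 0.00188). TOP2A, which untangles DNA before division, had 20.2 and 21.7 RPKM in mock cells, against 6.49 and 8.33 RPKM in untreated cells (limma adjusted p = 0.00514). MKI67, the gene of the proliferation antigen Ki-67, was the member that fell, with 6.82 and 6.69 RPKM in mock cells, against 11.3 and 16.5 RPKM in untreated cells. After quantile normalization 4 of 24 G2/M genes rose and 1 fell. Under that scaling 1809 of all 12931 genes rose, a share near those of the G1/S and G2/M lists. The medians were then 0.38 for G1/S and 0.2 for G2/M genes, beside -0.0172 over all genes. Replication-dependent histone genes, whose transcripts mostly lack poly(A) tails and occur in near-identical copies, had 5 of 20 higher and 2 lower. Of the 20, 2 reached 0.5 RPKM in untreated cells alone and so passed the filter only where they were high. Of the other 18, 5 rose (27.8%) and none fell.

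Proteasome subunits other than those of the immunoproteasome rose in 8 of 28 cases, and 1, PSMD4, fell; over single libraries left out 2 to 17 rose. PSMB1 had 259 and 259 RPKM in mock cells, against 123 and 83.8 RPKM in untreated cells (limma adjusted p = 0.00861). The list of hypoxia and glycolysis had 10 of 31 members higher and 4 lower, 5 rose after median-ratio scaling, and 2 to 17 rose over single libraries left out. GPI, the second enzyme of glycolysis, had 633 and 594 RPKM in mock cells, against 217 and 215 RPKM in untreated cells (log2 difference 1.50, SE 0.157, limma adjusted p = 0.00271). EGLN3, an oxygen-sensing hydroxylase, had 23.5 and 23.2 RPKM in mock cells, against 7.98 and 9.08 RPKM in untreated cells (limma adjusted p = 0.00404). GAPDH, a glycolytic enzyme often used to normalise RNA measurements, fell, with 746 and 761 RPKM in mock cells, against 1541 and 1803 RPKM in untreated cells (log2 difference -1.15, SE 0.181, limma adjusted p = 0.00845). After quantile normalization GAPDH was not called (log2 difference -0.57, limma adjusted p = 0.053). Without that normalization, enzymes of 1 pathway thus moved in both directions. BNIP3, a mitophagy receptor, had 59.1 and 86.98 RPKM in mock cells, against 197 and 329 RPKM in untreated cells (limma adjusted p = 0.00888). Of 40 nuclear-encoded respiratory chain genes 7 rose (17.5%, near the share of all genes) and 4 fell (10.0%). Over single libraries left out 0 to 20 rose and 3 to 9 fell. Among the 11 called, UQCRH, a subunit of complex III, had the largest difference (log2 difference -1.55).

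Few lipid synthesis genes were called. In cholesterol synthesis 1 of 22 genes rose, FDFT1, and 2 fell, FDPS and EBP, and after quantile normalization 6 fell and none rose. Over single libraries left out 0 to 8 fell and 0 to 3 rose. In fatty acid synthesis 2 of 13 rose and 2 fell, with 0 to 5 rising and 1 to 3 falling over single libraries left out. FASN, the fatty acid synthase, rose, with 161 and 159 RPKM in mock cells, against 69.2 and 90.6 RPKM in untreated cells. SCD, the desaturase that acts after it, fell, with 119 and 133 RPKM in mock cells, against 247 and 310.2 RPKM in untreated cells. ELOVL5, an elongase of polyunsaturated chains, fell, with 78.3 and 88.2 RPKM in mock cells, against 196 and 378 RPKM in untreated cells. The steps of fatty acid synthesis thus moved both ways. Of 23 lysosomal genes 4 rose (17.4%, near the share of all genes) and 1 fell, and over single libraries left out 2 to 11 rose and 0 to 4 fell. TFEB, their transcription factor, had 7.70 and 6.93 RPKM in mock cells, against 1.89 and 1.12 RPKM in untreated cells. Among 19 p53 targets 2 rose, a share below that of all genes, and 1 fell. None was called without either mock library, and 8 or 9 rose without untreated replicate 1 or 2. CDKN1A (p21) had 78.2 and 75.4 RPKM in mock cells, against 36.1 and 43.5 RPKM in untreated cells. MDM2, the ubiquitin ligase of p53, had 2.90 and 3.40 RPKM in mock cells, against 5.29 and 6.49 RPKM in untreated cells. Of 6 metallothioneins and zinc transporters 1 fell, SLC39A10. Among 32 SR proteins and hnRNPs, which regulate splicing, 4 rose (12.5%) and 6 fell (18.8%). After median-ratio scaling none of them rose and 9 fell, and over single libraries left out 0 to 7 rose and 1 to 14 fell.

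The RNA interference machinery, which loads and uses an siRNA, gave no call among its 10 genes. AGO2, the slicing Argonaute, had 2.80 and 3.41 RPKM in mock cells, against 4.79 and 5.37 RPKM in untreated cells (log2 difference -0.63, limma adjusted p = 0.0701). DICER1, which cuts the precursors, had 1.24 and 1.14 RPKM in mock cells, against 1.51 and 2.51 RPKM in untreated cells (log2 difference -0.54, limma adjusted p = 0.177). Of the 10 differences 9 were negative, 6 of the genes fell after quantile normalization and after median-ratio scaling, and 7 fell without untreated replicate 1.

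Among subunits of Polycomb repressive complex 2, 3 of 12 rose, beside 18.4% of all genes, and none fell, and 1 to 5 rose over single libraries left out. RBBP7, a histone-binding subunit, had 146 and 142 RPKM in mock cells, against 26.2 and 31.1 RPKM in untreated cells (log2 difference 2.32, SE 0.163, limma adjusted p = 0.000829). The Polycomb-like accessory subunits PHF19 and PHF1 rose by log2 differences of 0.95 and 0.76. The core subunits SUZ12 and EED, like EZH2, were not called (log2 differences 0.34 and 0.58).

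**Figure D4:**
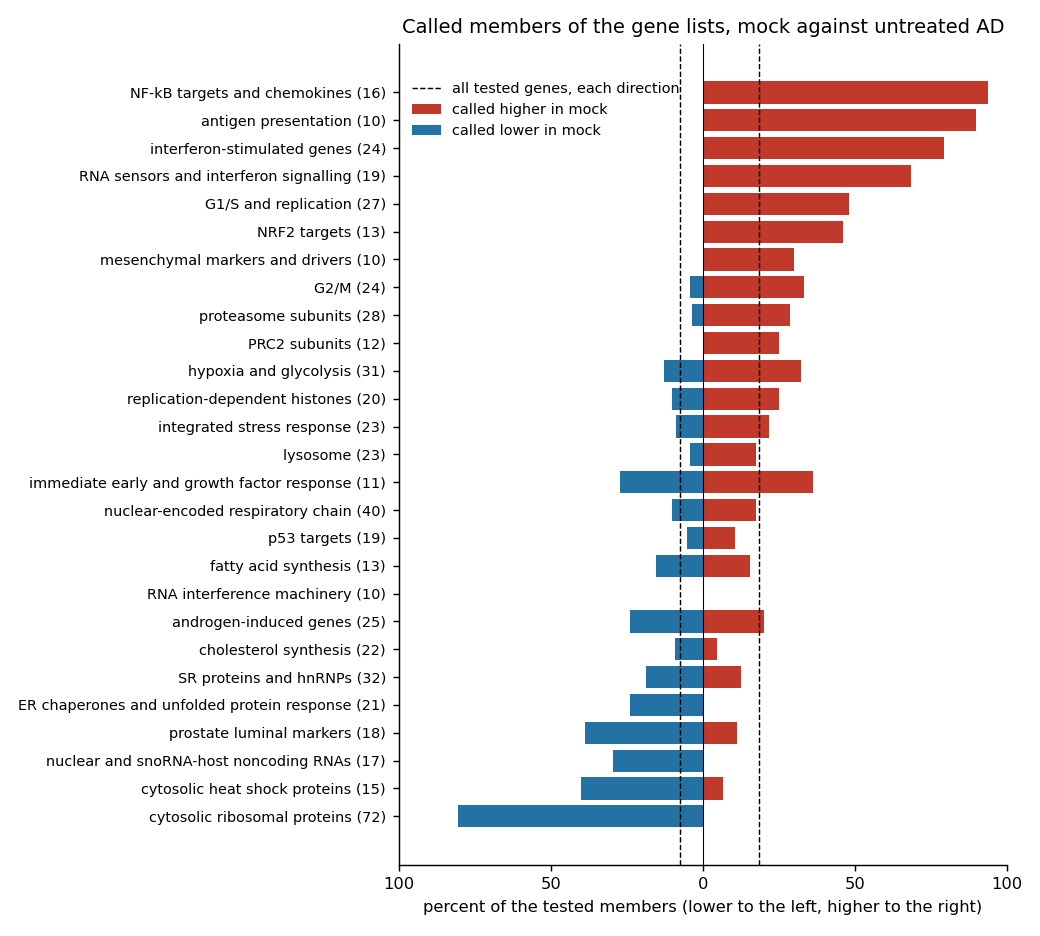
Percentage of the tested members of the gene lists with 10 or more tested members shown (number tested in brackets) called higher in mock than in untreated AD cells (right) or lower (left), with dashed lines at the 18.4% and 7.35% of all genes tested. Interferon, sensor, NF-kB and antigen presentation lists have calls to the right alone, and the ribosomal protein list to the left alone. With smaller shares, NRF2, G1/S, mesenchymal and PRC2 lists also have calls to the right alone. The endoplasmic reticulum chaperone and noncoding RNA lists have calls to the left alone.

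Androgen-regulated genes moved in both directions. Of 25 genes that androgen is known to induce, 5 rose and 6 fell, with 3 to 9 rising and 4 to 9 falling over single libraries left out. KLK3, the gene of prostate-specific antigen, fell, with 1769 and 1605 RPKM in mock cells, against 5166 and 4012 RPKM in untreated cells (log2 difference -1.43, SE 0.215, limma adjusted p = 0.00744). Its neighbour KLK4 rose, with 458 and 437 RPKM in mock cells, against 94.5 and 119.8 RPKM in untreated cells (log2 difference 2.07, SE 0.179, limma adjusted p = 0.00171). KLK2 overlapped between groups, with 302 and 281 RPKM in mock cells, against 396 and 268 RPKM in untreated cells. These are 3 kallikreins of 1 gene cluster. FKBP5, a chaperone of steroid receptors, rose, with 20.01 and 21.2 RPKM in mock cells, against 4.94 and 5.69 RPKM in untreated cells. KCNN2, a calcium-activated potassium channel, fell, with 10.3 and 10.9 RPKM in mock cells, against 51.9 and 71.1 RPKM in untreated cells. TRPM8, a cold-sensing channel, fell, with 2.42 and 2.62 RPKM in mock cells, against 8.89 and 13.1 RPKM in untreated cells. Genes of 1 hormone response thus differed in direction.

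Of the 5 tested genes on a list written as androgen-repressed, 3 fell and 1 rose. UGT2B17, which inactivates androgens by glucuronidation, had 0.888 and 0.521 RPKM in mock cells, against 22.2 and 40.8 RPKM in untreated cells (log2 difference -4.68, SE 0.328, limma adjusted p = 0.000824). Its close copy UGT2B15, with which it may share reads, had 0.398 and 0.567 RPKM in mock cells, against 4.13 and 14.3 RPKM in untreated cells. Both fell. ODC1, the first enzyme of polyamine synthesis, also fell, with 186 and 196 RPKM in mock cells, against 303 and 299.9 RPKM in untreated cells. Its place on a list of androgen-repressed genes is doubtful, so the count for this list is uncertain. BCHE, butyrylcholinesterase, rose, with 58.7 and 67.7 RPKM in mock cells, against 13.6 and 18.04 RPKM in untreated cells.

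Of 18 luminal markers 7 fell and 2 rose, with 4 to 11 falling over single libraries left out. ACP3, prostatic acid phosphatase, had 1.61 and 1.35 RPKM in mock cells, against 37.1 and 50.8 RPKM in untreated cells (log2 difference -4.48, SE 0.220, limma adjusted p = 0.000374). KRT18 fell, with 116.8 and 128 RPKM in mock cells, against 414 and 336 RPKM in untreated cells. KRT8, its partner in the keratin filament, had 107 and 120.4 RPKM in mock cells, against 144 and 99.3 RPKM in untreated cells, and its groups overlapped. Partners of 1 filament thus differed in their calls. KRT19 and FOLH1 (PSMA) fell by 1.37 and 1.29 on the log2 scale. The markers that rose were AMACR and MSMB, a secreted prostate protein with 3.14 and 1.41 RPKM in mock cells, against 0.715 and 0.405 RPKM in untreated cells. In bulk libraries fewer cells of a kind and less RNA per cell cannot be told apart.

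Many markers of other cell types stayed below the filter, but not all were scarce. Of 12 basal epithelial genes 4 were tested, 2 rose and 2 fell, and KRT5 was listed at 0 throughout. LAMB3, a laminin chain, rose, with 3.29 and 2.72 RPKM in mock cells, against 0 and 0.0578 RPKM in untreated cells. KRT14 fell, with 0.287 and 0.372 RPKM in mock cells, against 3.81 and 5.28 RPKM in untreated cells. Of 12 blood and endothelial genes 1 was tested, VWF, which fell, with 0.351 and 0.381 RPKM in mock cells, against 3.61 and 3.79 RPKM in untreated cells. The 2 neuroendocrine genes tested, SYP and ENO2, were not called. Their median was 23.05 and 21.92 RPKM in mock cells, against 20.46 and 18.86 RPKM in untreated cells. SYP was low, as given above, so ENO2 was well expressed in all 4 libraries. Among 10 mesenchymal genes 3 rose and none fell, with a median of -0.104 beside 0.165 over all genes. None was called without either mock library, and 3 rose without either untreated library. TGFB1 had 1.57 and 2.58 RPKM in mock cells, against 0.491 and 0.289 RPKM in untreated cells. SNAI2, a repressor of epithelial genes, had 1.02 and 1.46 RPKM in mock cells, against 0.235 and 0.116 RPKM in untreated cells. VIM, vimentin, had 10.1 and 12.9 RPKM in mock cells, against 6.43 and 6.63 RPKM in untreated cells. The summed level of the mesenchymal list was 157.3 and 162.7 RPKM in mock cells, against 141.4 and 194.2 RPKM in untreated cells. TGFB1 and SNAI2 reached 0.5 RPKM in mock cells alone and so passed the filter only where they were high. Of the other 8 mesenchymal genes 1, VIM, rose (12.5%), beside 16.3% of the 12058 genes that reached 0.5 RPKM in both groups. Of 3 stromal genes tested ACTA2 rose and TAGLN fell. LAMB3 and ACTA2 reached 0.5 RPKM in mock cells alone, and KRT14 and VWF in untreated cells alone.

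Several of the largest rises belonged to genes on no list. DIO3, which inactivates thyroid hormone and lies in an imprinted locus, had 224 and 197 RPKM in mock cells, against 5.22 and 4.13 RPKM in untreated cells (log2 difference 5.35, SE 0.181, limma adjusted p = 0.000168). NPPC, the precursor of C-type natriuretic peptide, had 44.2 and 49.7 RPKM in mock cells, against 0.439 and 0.856 RPKM in untreated cells (log2 difference 5.39, SE 0.238, limma adjusted p = 0.000243). CHST2, a sulfotransferase of carbohydrate chains, had 32.8 and 38.2 RPKM in mock cells, against 0.215 and 0.0810 RPKM in untreated cells (log2 difference 5.80, SE 0.219, limma adjusted p = 0.000237). All 3 were low or scarce in untreated cells. PLAAT4, an acyltransferase known to be induced by retinoids, had 33.3 and 29.2 RPKM in mock cells, against 0.603 and 0.347 RPKM in untreated cells (limma adjusted p = 0.000243). COL12A1, a collagen of the extracellular matrix, had 16.4 and 17.9 RPKM in mock cells, against 0.184 and 0.197 RPKM in untreated cells (log2 difference 4.67, SE 0.205, limma adjusted p = 0.000243). TCEAL2 had 13.6 and 10.9 RPKM in mock cells and was listed at 0 in untreated cells (limma adjusted p = 0.000349).

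Large falls were found in genes of several kinds. ADRA2A, an adrenergic receptor, had 0.564 and 0.149 RPKM in mock cells, against 25.2 and 35.4 RPKM in untreated cells (log2 difference -5.19, SE 0.307, limma adjusted p = 0.000589). OR51E1, an olfactory receptor expressed in prostate, had 0.268 and 0.344 RPKM in mock cells, against 19.6 and 21.4 RPKM in untreated cells (log2 difference -4.70, SE 0.204, limma adjusted p = 0.000243). TFF1, a secreted trefoil peptide known as an oestrogen target, had 0.176 and 0.279 RPKM in mock cells, against 11.4 and 4.89 RPKM in untreated cells (limma adjusted p = 0.00315). Each was almost absent in mock cells. SLC4A4, a bicarbonate cotransporter, had 0.527 and 0.493 RPKM in mock cells, against 7.90 and 9.25 RPKM in untreated cells (limma adjusted p = 0.000715). COLEC12, a scavenger receptor, had 1.91 and 1.97 RPKM in mock cells, against 19.4 and 22.96 RPKM in untreated cells (limma adjusted p = 0.000646). The small RNAs RNU6-8 and SNORA18 were listed at 0 after mock transfection, against 14.3 and 4.08 RPKM for RNU6-8 and 6.22 and 3.76 RPKM for SNORA18 in untreated cells. Such short genes are poorly measured in libraries of polyadenylated RNA and have many copies, so these values are uncertain.

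The AD siEZH2 libraries, transfected in the same way by the labels, are set beside these values without a test. OASL had 72.3 and 71.8 RPKM in siEZH2 cells, ISG15 had 624 and 619 RPKM, LCN2 had 123 and 124 RPKM and CCL2 had 10.8 and 11.8 RPKM. Of the genes that fell, ACP3 had 1.72 and 1.74 RPKM, RPS7 had 9.08 and 9.93 RPKM and MALAT1 had 138 and 134 RPKM in siEZH2 cells. Each of these 7 was nearer to its mock than to its untreated values. They had been picked for large mock differences, and the share of all genes nearer to mock was not counted. Over the tested genes, siEZH2 libraries correlated with the AD untreated mean at 0.928 and 0.928, beside 0.928 and 0.93 for mock libraries. The summed interferon list stood at 1121 and 1114 RPKM and the summed ribosomal list at 16020 and 16160 RPKM in siEZH2 cells.

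H3K27me3, the repressive histone mark that EZH2 places, had been mapped by chromatin immunoprecipitation in AD cells, and the authors' peak lists were compared with the genes called here. A peak in both AD replicates within 1 kb of the gene start was present for 35 of 1753 genes that rose and had a RefSeq start (2.00%), 3 of 593 that fell (0.506%) and 29 of 7233 that were not called (0.401%). This contrast rests on the filter, since a gene silent in untreated cells could enter only by being higher in mock cells. Among genes that reached 0.5 RPKM in at least 1 library of each group, the peak was present for 9 of 1514 that rose (0.594%), 2 of 530 that fell (0.377%) and 25 of 7074 that were not called (0.353%). With a window of 5 kb it was present for 27, 6 and 92 of them, and a peak in either replicate within 1 kb was present for 36, 13 and 94.

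Of the genes that rose by a log2 difference of 2 or more, 7 had the peak, namely TCEAL2, TNNT1, BEX1, COMP, LBH, KCNF1 and COL12A1. These 7 were singled out after their values were seen, and TNNT1 and COMP were the 2 that reached 0.5 RPKM in untreated cells. TNNT1, a slow-muscle troponin, had 125 and 98.9 RPKM in mock cells, against 12.98 and 11.2 RPKM in untreated cells. KCNF1, a modifying potassium channel subunit, had 5.23 and 6.26 RPKM in mock cells, against 0.0307 and 0.0463 RPKM in untreated cells. COMP, a cartilage matrix protein, had 8.19 and 8.38 RPKM in mock cells, against 1.51 and 0.960 RPKM in untreated cells. The 5 apart from TNNT1 and COMP were at or under 0.204 RPKM in both untreated libraries. None of the 16 interferon-stimulated and 12 NF-kB genes that rose and had a RefSeq start had such a peak. Among list members with a start, called or not, 3 of 20 NF-kB and 0 of 28 interferon-stimulated genes had it. Since only 2.00% of all genes that rose had the peak, its absence from so few genes says little. These shares are descriptions and were not tested.

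The mock effect in AD cells was then set against that in AI cells, which share no library with it. The effects differed for 6671 genes (51.6%), with the AD effect above the AI effect for 5826 (45.1%) and below it for 845 (6.53%). This split depends on scaling, since the median AI difference was -0.52, and quantile normalization gave 2422 above and 2206 below. For interferon-stimulated genes the AD effect was above the AI effect in 22 of 24 members (20 of 24 after quantile normalization) and below it in none. The filter was set on AD libraries, so the 9 members that passed through AD mock cells alone had to be high there. Of the other 15, 13 had the AD effect above (86.7%, 11 after quantile normalization), beside 44.8% of the 12058 genes at that level in both AD groups. The median log2 difference over all 24 was 1.89 in AD cells and -0.65 in AI cells. In AI cells the summed level of the list was 188 and 171 RPKM after mock transfection, against 172 and 138 RPKM in untreated cells.

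ISG15 had 130.4 and 115.6 RPKM in AI mock cells, against 75.5 and 35.7 RPKM in AI untreated cells, and its AD and AI effects differed by 3.15 (SE 0.554, limma adjusted p = 0.00252) on the log2 scale. OAS1 had 0.133 and 0.222 RPKM in AI mock cells, against 1.05 and 1.26 RPKM in AI untreated cells, and its effects differed by 4.90 (SE 0.248, limma adjusted p = 3.035e-05). It was thus lower in mock than in untreated AI cells. Of the RNA sensors and signalling genes 17 of 19 had the AD effect above the AI effect (11 after quantile normalization), and 15 of the 17 at that level in both AD groups (9 after quantile normalization). RIGI, which rose in AD cells, had 0.299 and 0.551 RPKM in AI mock cells, against 1.20 and 1.10 RPKM in AI untreated cells. It was thus lower in mock than in untreated AI cells. Without transfection it was higher in AI cells than in AD cells, which had 0.174 and 0.220 RPKM.

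NF-kB targets had the AD effect above the AI effect in 11 of 16 and below it in 1, and in 8 and 3 after quantile normalization. Of the 16, 9 had passed the filter through AD mock cells alone. Of the other 7, 4 had the AD effect above (57.1%, beside 44.8% of all such genes) and 1 below, and 2 and 2 after quantile normalization. NFKBIA, the 1 below, had 183 and 186 RPKM in AI mock cells, against 39.9 and 35.6 RPKM in AI untreated cells, and its effects differed by -0.52 (SE 0.189, limma adjusted p = 0.0484). IER3 had 42.3 and 34.2 RPKM in AI mock cells, against 0.543 and 0.268 RPKM in AI untreated cells. LCN2, the largest rise in AD cells, had 0.532 and 0.0658 RPKM in AI mock cells, against 0.918 and 0.443 RPKM in AI untreated cells, and its AI groups overlapped at low levels.

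Hypoxia and glycolysis genes and the integrated stress response showed the reverse pattern. In the hypoxia list the AD effect was below the AI effect for 25 of 31 members and above it for 1, and the medians were 0.33 in AD cells and 2.02 in AI cells. In the stress response list it was below for 13 of 23 and above for 2, with medians of -0.10 in AD cells and 1.20 in AI cells. ATF4 did not follow that list median, with 55.8 and 56.2 RPKM in AI mock cells, against 72.1 and 137 RPKM in AI untreated cells, and was lower after mock transfection in both lines. For ribosomal protein genes the AD effect was below the AI effect for 45 of 72 (36 after quantile normalization), with medians of -1.49 in AD cells and -0.11 in AI cells. Mitochondrial shares were 3.94% and 4.07% in AI mock libraries, against 19.6% and 33.5% in AI untreated ones, a gap like that in AD cells.

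**Figure D5:**
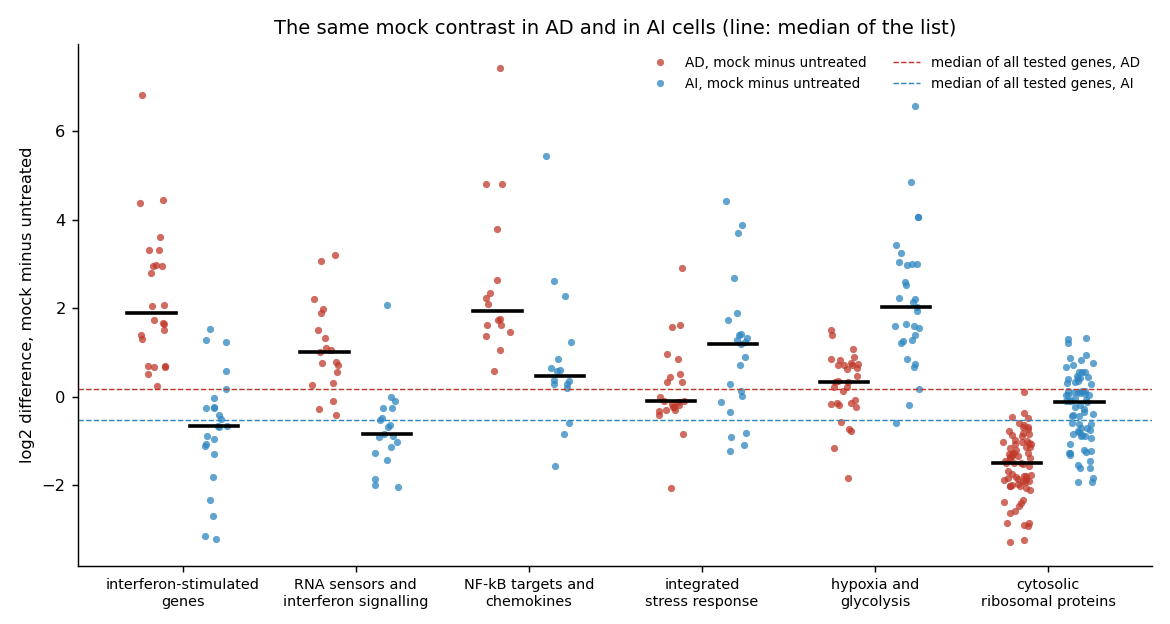
Mock minus untreated log2 difference (y axis) of the tested members of 6 gene lists, 1 point a gene, in AD cells (left of each pair) and AI cells (right), with list medians as bars and the medians of all tested genes as dashed lines. Interferon genes have a median of 1.89 in AD cells and -0.65 in AI cells, and hypoxia genes 0.33 in AD cells and 2.02 in AI cells.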

How the data were processed

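Polyadenylated RNA was sequenced as directional, paired-end libraries, per the labels' protocols. The authors deposited RPKM values per gene, and for RNA-seq TopHat2, edgeR, cutadapt and GRCh38 are named without versions, per the submitters' processing notes (Bowtie2, cutadapt and GRCh38 for ChIP-seq). No source used here gives the counting tool, its annotation or whether strand was used, so overlapping and antisense genes are uncertain. The deposited peak lists carry the authors' score per peak, used here only for ranking within a list.

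From the deposited RPKM, 37 genes with symbols starting MT- were removed, and the columns were rescaled to the mean sum of the 4 AD columns. Printed levels are these values. Genes with 0.5 RPKM or more in at least 2 of the 4 AD libraries were tested on log2(RPKM + 0.5), a scale that understates changes of low genes, with limma 3.58.1 (R 4.3.3, trended variance, two-sided, Benjamini-Hochberg threshold 0.05), 2 libraries against 2. The difference between AD and AI effects was the interaction term of 1 fit of 8 libraries. "Rose", "fell" and "called" refer to this threshold. An exact permutation of 2 against 2 cannot give a two-sided p below 0.333, so none was used. Precision is limited by 2 libraries a group and by the estimated depths given in the text; RPKM holds no read totals, so no counting intervals are given.

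Gene names were taken by Ensembl identifier (27531 of 28071 matched). Of 808 entries on 34 gene lists, 749 were in the table, and others were not analysed here. Some members are not reported here. The members and lists were chosen with earlier results of these data known. Named genes were EZH2, the 12 called genes that rose most and the 12 that fell most. The rising and falling genes had to have a symbol, average at least 1 RPKM and have groups that did not overlap. Up to 4 called members a list were named by size of difference, with members needed to account for a small list. The 6 largest differences between AD and AI effects in each direction were taken among genes with a symbol called by the interaction test. These averaged at least 1 RPKM over the 8 libraries, and their AD groups did not overlap. Other genes were chosen after their values were seen. Promoter windows are from RefSeq (GRCh38.p14) and were matched by symbol. The fit was tested on simulated data. The alternatives were quantile and median-ratio scaling, the deposited columns as they stand, pseudocounts of 0.1 and 1, other filters, no variance trend, all 12 libraries, a replicate block, and leaving out each library.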

Additional observations from a re-analysis of the deposited data

Results flagged for a closer look

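The 12 genes below, 6 in each direction, had large differences between AD and AI effects and were called by the interaction test. Their differences were the largest among called genes with a symbol that averaged at least 1 RPKM over the 8 libraries. AD mock and untreated values also had to lie apart, so genes that changed in AI cells alone could be left out. All 12 were chosen by the size of the difference and not by its p-value, so their values describe the extremes of that set.

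In 6 genes the AD effect was above the AI effect. DIO3, which inactivates thyroid hormone, had 224 and 197 RPKM in AD mock cells, against 5.22 and 4.13 RPKM in AD untreated cells, and 0.266 and 0.123 RPKM in AI mock cells, against 4.70 and 5.50 RPKM in AI untreated cells, a difference of effects of 8.37 (SE 0.261, limma adjusted p = 5.886e-06) on the log2 scale. LCN2 had 0.532 and 0.0658 RPKM in AI mock cells, against 0.918 and 0.443 RPKM in AI untreated cells, and its effects differed by 8.02 (limma adjusted p = 4.786e-05). OASL had 0.282 and 0.214 RPKM in AI mock cells, against 0.626 and 0.722 RPKM in AI untreated cells, a difference of 7.46 (SE 0.235, limma adjusted p = 5.886e-06). In AD cells all 3 were higher after mock transfection; in AI cells DIO3 and OASL were lower and the LCN2 groups overlapped.

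CBLN2, a secreted synaptic organizer, had 18.9 and 21.9 RPKM in AD mock cells, against 5.69 and 6.04 RPKM in AD untreated cells, and 1.20 and 1.34 RPKM in AI mock cells, against 73.7 and 64.98 RPKM in AI untreated cells, a difference of 7.01 (SE 0.211, limma adjusted p = 5.886e-06). COL12A1 had 0.847 and 1.17 RPKM in AI mock cells, against 3.77 and 4.93 RPKM in AI untreated cells, a difference of 6.36 (SE 0.275, limma adjusted p = 1.675e-05). IFI35, an interferon-induced protein, had 26.96 and 25.8 RPKM in AD mock cells, against 3.01 and 2.89 RPKM in AD untreated cells, and 1.49 and 1.65 RPKM in AI mock cells, against 20.3 and 17.2 RPKM in AI untreated cells, a difference of 6.17 (SE 0.213, limma adjusted p = 8.836e-06).

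In 6 genes the AD effect was below the AI effect. ANKRD37, a known hypoxia target, had 53 and 51.2 RPKM in AD mock cells, against 25.1 and 31.03 RPKM in AD untreated cells, and 724 and 772 RPKM in AI mock cells, against 6.97 and 7.89 RPKM in AI untreated cells, a difference of -5.67 (SE 0.206, limma adjusted p = 9.719e-06). FOS had 23.2 and 20.99 RPKM in AI mock cells, against 1.10 and 0.967 RPKM in AI untreated cells, a difference of -5.62 (SE 0.206, limma adjusted p = 9.719e-06). STC1, the secreted hormone stanniocalcin, had 1.52 and 1.91 RPKM in AD mock cells, against 3.87 and 5.16 RPKM in AD untreated cells, and 12.3 and 12.6 RPKM in AI mock cells, against 0.324 and 0.396 RPKM in AI untreated cells, a difference of -5.09 (SE 0.270, limma adjusted p = 3.644e-05). FOS and STC1 were lower in AD mock cells and higher in AI mock cells than in the untreated cells of the same line.

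CLEC3B, tetranectin, had 5.36 and 4.59 RPKM in AD mock cells, against 17.02 and 16.7 RPKM in AD untreated cells, and 15.01 and 15.2 RPKM in AI mock cells, against 1.62 and 1.46 RPKM in AI untreated cells, a difference of -4.61 (SE 0.208, limma adjusted p = 1.819e-05). SCNN1G, a subunit of the epithelial sodium channel, had 9.37 and 8.48 RPKM in AD mock cells, against 13.1 and 15.7 RPKM in AD untreated cells, and 8.25 and 8.63 RPKM in AI mock cells, against 0.146 and 0.0233 RPKM in AI untreated cells, a difference of -4.60 (SE 0.251, limma adjusted p = 4.031e-05). TSC22D3, the glucocorticoid-induced leucine zipper, had 38.96 and 34.2 RPKM in AD mock cells, against 41.6 and 43.6 RPKM in AD untreated cells, and 194 and 184 RPKM in AI mock cells, against 11.3 and 9.73 RPKM in AI untreated cells, a difference of -4.32 (SE 0.193, limma adjusted p = 1.786e-05).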

How the results depend on the processing

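With 2 libraries a group the number of called genes moved with the processing. Of 131 named called genes, none reversed its direction under any of the up to 15 alternatives run, 78 stayed called under every one, and 53 lost the call under at least 1, among them 48 without a filter on low values and 35 and 33 without mock replicate 1 or 2. The 3330 calls became 5156 (4336 higher) on the deposited columns as they stand, 1346 (1043 higher, 303 lower) without a filter, and 5233 (3639 higher, 1594 lower) in a fit of all 12 libraries; genes called lower numbered 1753 after quantile normalization and 1565 after median-ratio scaling. Leaving out 1 library gave 1186 to 5889 calls, 732 to 4531 higher and 432 to 2192 lower. The AD effect was above the AI effect for 2422 genes after quantile normalization and 3289 after median-ratio scaling, and below it for 2206 and 2093; leaving out 1 library gave 4720 to 7296 differences, 4140 to 6431 above and 561 to 918 below. The groups share replicate numbers, but replicate differences of mock and untreated cells correlated at only 0.164 over genes and there are 2 pairs, so the numbers are not taken as pairing. With the replicate as a block 4663 genes were called (3248 higher, 1415 lower), 3325 of them shared with the 3330. The block gave 7425 differences between AD and AI. Genes near 0 in untreated cells, such as OASL and LCN2, could not pass the filter without either mock library. The cause of these movements was not tested.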
